A study of Oryza sativa with 6 samples.

Results

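Genes for dehydrins and other late embryogenesis abundant (LEA) proteins were followed in leaves of rice with altered MIR171f, a gene for a microRNA of the miR171 family. They are all genes of the expression table whose description names a dehydrin, a late embryogenesis abundant protein, desiccation, early responsiveness to dehydration or water stress. This gave 11 transcripts of 11 genes, among 7194 listed transcripts of 6535 genes; 4 descriptions named a dehydrin and 7 a LEA protein. Leaves of 4-week-old, greenhouse-grown plants were compared between nontransgenic rice (WT), rice with whole-body overexpression of Osa-MIR171f (OX) and CRISPR-Cas9 knockout mutants of Osa-mir171f (KO), with 2 libraries in each group. The OX libraries came from the lines Ox_3 and Ox_5, and the KO libraries were labelled K/O_2 and K/O_2_1. Neither the promoter of the transgene nor the rice cultivar is stated in the labels, which also name no drought treatment. By its title the study concerns drought tolerance, and these comparisons show how genes known for water-deficit responses stood in such leaves.

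LEA proteins are small, mostly very hydrophilic proteins that accumulate late in seed maturation, when the embryo dries out. Many of them also accumulate in leaves and roots during drought, cold or salt stress, or after treatment with the hormone abscisic acid. Most lack a fixed fold in water and are thought to shield membranes and other proteins as cells lose water. Dehydrins are the LEA family defined by a short lysine-rich repeat, the K-segment, and the rice RAB16 dehydrins are named for their response to abscisic acid.

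The libraries held between 28374245 and 33404887 reads, recovered from the deposited FPKM and counts. Levels are given as CPM, the count scaled to the authors' effective library total. These totals ran from 23869522 to 34214364. No listed transcript was described as a miR171 precursor, so the altered gene itself was not a check of the labels here. Leaf genes were high in every library: 40 transcripts for photosystem, chlorophyll-binding and Rubisco small-subunit proteins summed to 118667 and 126352 CPM in WT, 47838 and 51387 CPM in OX, and 77949 and 76758 CPM in KO. By the test described next, 34 of these 40 were lower in OX than in WT and 30 were lower in KO than in WT. Over all tested transcripts, themselves selected for change, 19.0% and 11.0% were called lower. None of the 40 was called higher, against 1 and 0 at an unadjusted p below 0.05 and 0 and 0 by DESeq2. In leaf tissue as a whole, fewer cells of a type and less RNA per cell cannot be told apart. The labels do not say whether the libraries of WT, or of KO, came from separate plants, and a p-value therefore speaks of the spread among these samples, part of which may be technical.

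Differences were tested with edgeR's quasi-likelihood test on all 6 libraries, with Benjamini-Hochberg adjustment over the 27384 transcripts the authors tested, and a transcript is called at an adjusted p below 0.05. The authors listed a transcript if any of their comparisons gave a change of 2-fold or more at a raw p under 0.05, so the table holds only transcripts chosen for change. Of the 11 genes, 5 had been selected through 1 comparison, 5 through 2 and 1 through all 3. By comparison, 5 had been selected through OX against WT, 7 through KO against WT and 6 through OX against KO. Counts at an unadjusted p, separations of libraries and medians of these genes therefore partly follow from the selection. Other dehydrin and LEA genes of rice were not analysed here. Of the 11 genes, 9 passed the filter on low counts, and the other 2 genes, both for LEA-18 domain proteins, are described by their counts.

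The 11 transcripts spanned a wide range of abundance, and 3 of them made up nearly all of their summed level. The FPKM scale allows for transcript length. On it, the transcripts of the dehydrin Os02g0669100, the Lea14-A-like gene Os05g0584200 and the LEA 2 family gene Os03g0843300 stood highest. Together they made up 93.5% to 96.8% of the summed level of the 11 transcripts in each library. The lowest of these 3 transcripts stood between 9.43 and 32.3 FPKM in the 6 libraries. The highest of the other 8 transcripts stood between 1.05 and 3.58 FPKM. The dehydrin Os02g0669100 alone accounted for 44.3% to 59.6%. The summed level of the 11 transcripts was 64.0 and 66.1 FPKM in WT, 163 and 144 FPKM in OX, and 242 and 192 FPKM in KO. This sum leaves out a second listed transcript of Os05g0542500, described below, so it does not rank whole genes. That transcript ranged from 4.95 to 6.56 FPKM in WT, and from 20.4 to 25.7 FPKM across the OX and KO libraries. Also left out is the RAB21-like gene Os11g0454300, which reached 22.1 and 22.4 FPKM in KO.

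**Figure D1:**
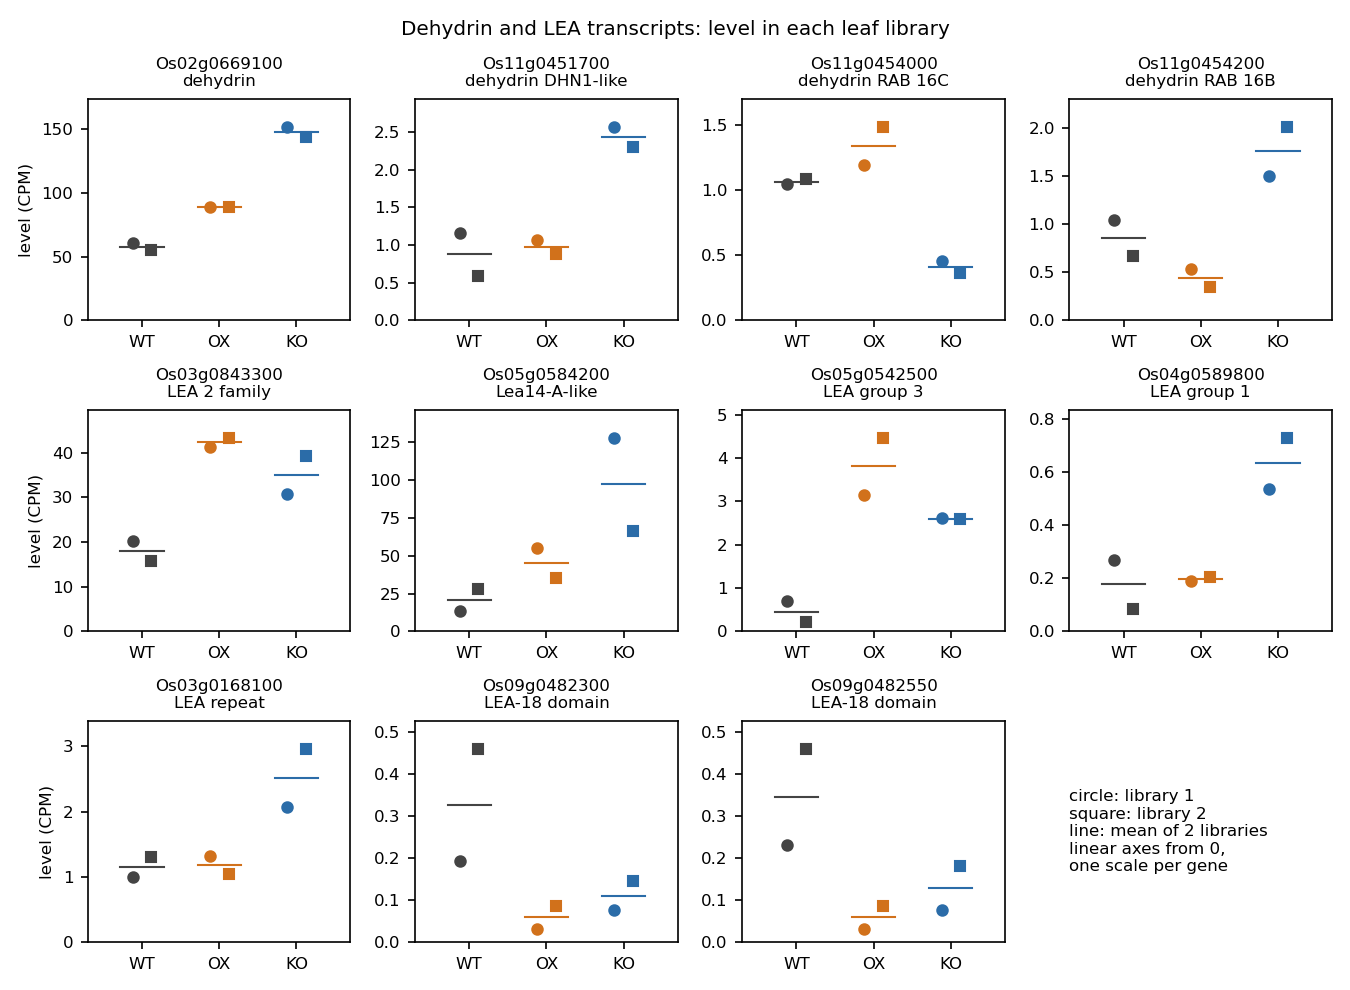
Level of each of the 11 dehydrin and LEA transcripts (vertical axis, CPM, linear from 0 with a scale of its own for each gene) in the WT, OX and KO groups, with a circle for library 1, a square for library 2 and a line for the mean of the 2 libraries. The dehydrin Os02g0669100 rises from 54.9 and 61.0 CPM in WT to 144 and 152 CPM in KO, while RAB 16C is lowest in KO, at 0.366 and 0.460 CPM.

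Against WT, the OX leaves had more RNA of 3 of the 9 tested genes and less of none. The 3 were the dehydrin Os02g0669100, the LEA 2 family gene Os03g0843300 and the LEA group 3 gene Os05g0542500. In all, 25.0% of the 7034 tested transcripts were called higher and 19.0% lower in this comparison, so 3 of 9 was near the background. At an unadjusted p below 0.05 the count was also 3 higher and 0 lower, as it was by DESeq2. The median log2 fold change of the 9 genes was 0.33, beside 0.28 over all tested transcripts. In 5 of the 9 genes every OX library lay above every WT library, and in 1, RAB 16B, below, where 46.7% of tested transcripts lay higher, 38.1% lower and 84.7% one or the other. Without OX 2, 1 gene was called higher.

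Against WT, the KO leaves had more RNA of 2 of the 9 genes, counted by their member transcripts, and less of none. The 2 were the dehydrin Os02g0669100 and the LEA 2 family gene Os03g0843300. The second transcript of Os05g0542500, outside the 11, was also called higher (log2 1.64, SE 0.16, adjusted p = 0.00243 by edgeR). The background was 25.0% called higher and 11.0% called lower. At an unadjusted p below 0.05 the count was 8 higher and 1 lower, and DESeq2 called 4 higher and 0 lower. Of the 11 genes, 7 had been listed through this comparison at a raw p under 0.05, so the unadjusted count was largely set by the selection. The share of all tested transcripts at an unadjusted p below 0.05 was not counted. In all 9 genes the KO and WT libraries did not overlap, 8 lying higher in KO and 1, RAB 16C, lying lower. Such separation was common in the table, with 49.5% of tested transcripts lying higher in KO, 29.8% lower and 79.3% one or the other. The median log2 fold change of the 9 genes was 1.35, beside 0.43 over all tested transcripts. The genes listed through this comparison had entered with a change of 2-fold or more, so this median too partly follows from the selection. With DESeq2 size factors or TMM factors computed on the listed transcripts, which lower all KO against WT differences by 0.49 and 0.56 at the median, the count was 1 higher and 1 lower. It was 1 higher without WT 2, OX 1, OX 2 or KO 2, and 3 higher without WT 1.

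Between the altered genotypes, 1 gene was higher in OX than in KO (RAB 16C) and 2 were lower in OX (Os02g0669100 and RAB 16B), where 13.3% and 25.0% of tested transcripts were called higher and lower. At an unadjusted p below 0.05 the count was 1 higher and 5 lower. Of the 11 genes, 6 had been listed through this comparison, so this count and the median below partly follow from the selection. The OX and KO libraries did not overlap in any of the 9 genes, 3 lying higher in OX and 6 lower, where 33.9% of tested transcripts lay higher, 50.0% lower and 84.0% one or the other. The median log2 difference of OX from KO was −1.08 for the 9 genes and −0.41 over all tested transcripts. Leaving out any 1 of the 6 libraries reduced the count to 0 higher and 1 lower. The count was 1 higher and 1 lower with DESeq2 size factors or plain library totals, and 1 higher and 0 lower with TMM factors.

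**Figure D2:**
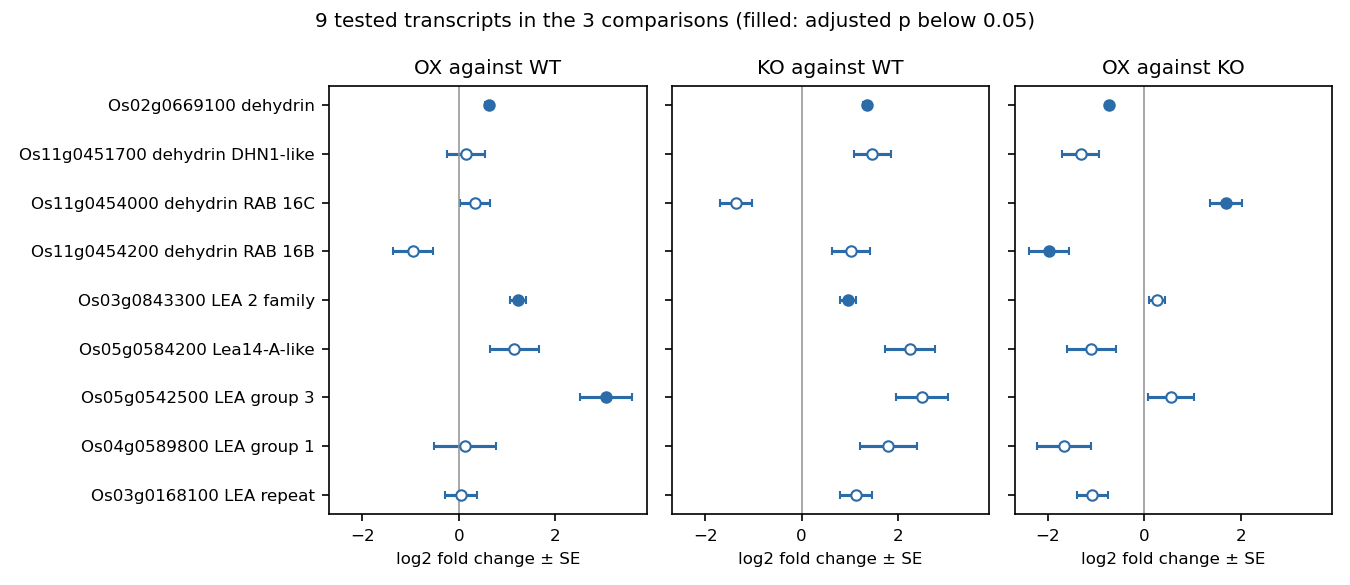
Log2 fold change with its standard error (horizontal axis) for the 9 tested dehydrin and LEA genes in the 3 comparisons, with filled points for an adjusted p below 0.05 in edgeR's quasi-likelihood test. In KO against WT 8 of the 9 points lie right of 0 and RAB 16C lies left of it at −1.36, but 2 points are filled.

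Os02g0669100 (chr2:27165514-27166898, IRGSP-1.0), described as a dehydrin family protein, was the most abundant dehydrin in every library on the FPKM scale. It stood at 61.0 and 54.9 CPM in WT, 88.8 and 89.1 CPM in OX, and 152 and 144 CPM in KO. The 3 groups did not overlap, with WT lowest, OX between and KO highest. The level was 2.55-fold higher in KO than in WT (log2 fold change 1.35, SE 0.07, adjusted p = 3.19e-04 by edgeR). It was 1.54-fold higher in OX than in WT (log2 0.62, SE 0.07, adjusted p = 0.00412) and 1.66-fold lower in OX than in KO (log2 −0.73, SE 0.07, adjusted p = 0.00255). The difference between OX and KO missed the threshold with TMM factors (log2 −0.36, adjusted p = 0.0749). In the authors' deposited table the signed folds for OX against WT and KO against WT were 1.54 and 2.55.

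The other 3 dehydrin genes of the set lay close together on chromosome 11. They were Os11g0451700 (chr11:15223376-15224746), described as similar to dehydrin DHN1 or RAB-17, Os11g0454000 (chr11:15327769-15328657), dehydrin RAB 16C, and Os11g0454200 (chr11:15336192-15337158), dehydrin RAB 16B. Next to them, Os11g0454300 (chr11:15342877-15343671) is described as similar to the water-stress inducible protein RAB21, and rice RAB21 is another name for a RAB16 dehydrin. Its hyphenated description kept it outside the 11 genes, and it is added here after its values were seen. Gaps of 103022, 7534 and 5718 bases separated the 4 genes, with no other listed transcript between them, and the group spanned 120296 bases. Close relatives of this kind can share reads, and how the authors' counting assigned such reads is not stated, so the split of reads among the 4 genes is uncertain.

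RAB 16C and RAB 16B differed between OX and KO in opposite directions. RAB 16C stood at 1.05 and 1.09 CPM in WT, 1.20 and 1.49 CPM in OX, and 0.460 and 0.366 CPM in KO. Both OX libraries lay above both WT libraries, and both KO libraries below them. The level was 3.24-fold higher in OX than in KO (log2 1.69, SE 0.33, adjusted p = 0.0335 by edgeR). Against WT, the log2 difference was 0.33 in OX (SE 0.31, adjusted p = 1) and −1.36 in KO (SE 0.34, adjusted p = 0.0793). The KO difference from WT was called with DESeq2 size factors (log2 −1.85, adjusted p = 0.0273) and with TMM factors (log2 −1.91, adjusted p = 0.0241).

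RAB 16B stood at 1.05 and 0.670 CPM in WT, 0.536 and 0.351 CPM in OX, and 1.50 and 2.01 CPM in KO. Here OX was lowest and KO highest, without overlap between any groups. The level was 3.94-fold lower in OX than in KO (log2 −1.98, SE 0.41, adjusted p = 0.0425 by edgeR). Against WT, the log2 difference was −0.95 in OX (SE 0.42, adjusted p = 0.379) and 1.02 in KO (SE 0.40, adjusted p = 0.306). Reads were few, with 10 to 51 counts per library for RAB 16C and 12 to 55 for RAB 16B. Both OX against KO calls were lost when any 1 library was left out, with adjusted p from 0.0686 to 0.175 for RAB 16C and from 0.0559 to 0.228 for RAB 16B. RAB 16B also missed it with each other scaling, at adjusted p = 0.0856 (DESeq2 size factors), 0.101 (TMM) and 0.0636 (plain library totals).

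Counts of RAB 16B divided by those of RAB 16C gave ratios of 1.0 and 0.615 in the WT libraries, 0.447 and 0.235 in those of OX, and 3.25 and 5.5 in those of KO. The ratio does not depend on library scaling, and KO lay above 1 in both libraries while OX lay below 0.5 in both. Both genes were listed through the authors' OX against KO comparison, with changes in opposite directions. A ratio that differs between OX and KO therefore follows from that selection and adds no separate support. It also rests on few reads, whose split between the genes is uncertain.

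The DHN1-like gene Os11g0451700 stood at 1.16 and 0.587 CPM in WT, 1.07 and 0.877 CPM in OX, and 2.57 and 2.30 CPM in KO. The KO libraries lay above the other 4, which overlapped. Neither difference passed the test, at a log2 difference of 1.47 for KO against WT (SE 0.39, adjusted p = 0.103 by edgeR) and −1.32 for OX against KO (SE 0.38, adjusted p = 0.127). For OX against WT the log2 difference was 0.15, and it fell below 0 with DESeq2 size factors or TMM factors and without WT 2 or OX 1.

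The RAB21-like gene was the most abundant of the 4 on the FPKM scale, and stood at 8.67 and 7.62 CPM in WT, 6.49 and 6.17 CPM in OX, and 17.0 and 17.3 CPM in KO. KO was highest and OX lowest, without overlap. It was higher in KO than in WT (log2 1.07, SE 0.13, adjusted p = 0.00591 by edgeR) and lower in OX than in KO (log2 −1.44, SE 0.13, adjusted p = 0.00202). The log2 difference of OX from WT was −0.37 (SE 0.13, adjusted p = 0.209), and 0.0040 with plain library totals. The KO against WT call was lost with DESeq2 size factors (adjusted p = 0.0661), with TMM factors (0.124), without KO 1 (0.0518) and without KO 2 (0.0549).

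**Figure D3:**
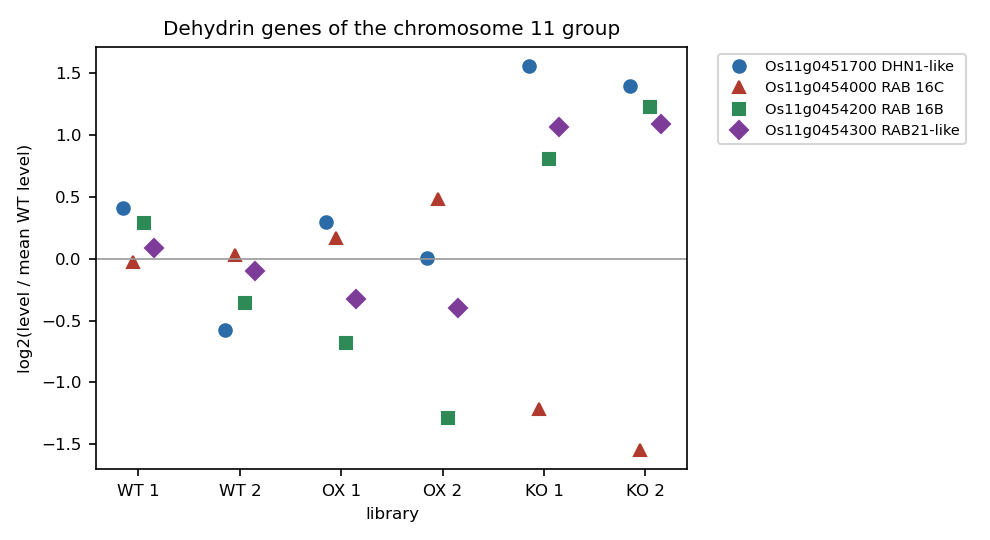
Log2 of the level divided by the mean WT level (vertical axis) in each of the 6 libraries (horizontal axis) for the 4 dehydrin genes of the chromosome 11 group. In both KO libraries RAB 16C lies below 0 while the DHN1-like, RAB 16B and RAB21-like genes lie above it; in both OX libraries RAB 16C lies above 0 and RAB 16B and the RAB21-like gene lie below it.

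Os03g0843300 (chr3:35441296-35443574), a LEA 2 family gene, was higher in both altered genotypes than in WT. Proteins of the LEA 2 family are less hydrophilic than dehydrins and have a folded domain. The level was 20.2 and 15.8 CPM in WT, 41.2 and 43.3 CPM in OX, and 30.8 and 39.2 CPM in KO. WT was lowest and OX highest, without overlap. The rise was 2.34-fold in OX (log2 1.23, SE 0.17, adjusted p = 0.00822 by edgeR) and 1.94-fold in KO (log2 0.96, SE 0.17, adjusted p = 0.0241). OX and KO were not told apart by the test (log2 0.27, SE 0.17, adjusted p = 0.792). The OX call was lost without OX 2 (adjusted p = 0.0528). The KO call was lost with DESeq2 size factors (log2 0.46, adjusted p = 0.285), with TMM factors (log2 0.40, adjusted p = 0.502) and without WT 2, OX 1, OX 2 or KO 2 (adjusted p = 0.0955, 0.0597, 0.0607 and 0.111).

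Os05g0584200 (chr5:29069323-29070559), similar to Lea14-A, another LEA protein of the folded, less hydrophilic type, had a high level but a wide spread within groups. It stood at 13.3 and 27.8 CPM in WT, 55.3 and 35.5 CPM in OX, and 128 and 66.3 CPM in KO. The groups did not overlap, and WT was lowest and KO highest. The log2 differences were 2.24 for KO against WT (SE 0.52, adjusted p = 0.0775 by edgeR), 1.15 for OX against WT (SE 0.51, adjusted p = 0.397) and −1.10 for OX against KO (SE 0.50, adjusted p = 0.462). DESeq2 called the KO difference from WT (adjusted p = 3.30e-05). The higher library of a group was 2.09 times the lower in WT, 1.56 times in OX and 1.93 times in KO. Among the 2295 tested transcripts with a mean above 10 CPM, 4.23%, 6.88% and 4.05% had a ratio as large in WT, OX and KO, and the median ratios were 1.10, 1.08 and 1.06.

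Os05g0542500 (chr5:26927607-26928882) had a member transcript for a LEA group 3 protein. Group 3 LEA proteins carry a short repeated motif and can turn helical on drying. This transcript stood at 0.697 and 0.209 CPM in WT, 3.15 and 4.47 CPM in OX, and 2.61 and 2.60 CPM in KO. WT was lowest and OX highest, without overlap. The transcript was 8.27-fold higher in OX than in WT (log2 3.05, SE 0.55, adjusted p = 0.0218 by edgeR), and the log2 difference of KO from WT was 2.50 (SE 0.54, adjusted p = 0.0520). The WT counts were 18 and 5, and without WT 1 the OX difference was log2 4.16 and without WT 2 log2 2.44. The OX call was lost without OX 1, OX 2, KO 1 or KO 2, at adjusted p = 0.0622, 0.103, 0.0536 and 0.0533. The KO difference was called with plain library totals (adjusted p = 0.0387), by DESeq2 (0.00164) and without WT 1 (0.0205).

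The same gene had a second listed transcript, described only as a LEA-like protein and so outside the 11, which was named after its values were seen. It held 84.5% to 96.6% of the gene's listed CPM, at 7.86 and 6.03 CPM in WT, 22.3 and 24.3 CPM in OX, and 21.5 and 21.9 CPM in KO. It was higher than in WT in OX (log2 1.74, SE 0.16, adjusted p = 0.00170 by edgeR) and in KO (log2 1.64, SE 0.16, adjusted p = 0.00243). The sum of both transcripts was 8.56 and 6.24 CPM in WT, 25.4 and 28.8 CPM in OX, and 24.1 and 24.5 CPM in KO. Transcripts of 1 gene share most of their sequence, so the division between them depends on the authors' counting.

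The remaining LEA genes were low. Os03g0168100 (chr3:3678292-3679969), for a LEA repeat protein, stood at 1.01 and 1.30 CPM in WT, 1.32 and 1.05 CPM in OX, and 2.07 and 2.96 CPM in KO. Os04g0589800 (chr4:29811954-29812662), a LEA group 1 gene, had 2 to 20 counts per library and stood at 0.271 and 0.0838 CPM in WT, 0.189 and 0.205 CPM in OX, and 0.537 and 0.731 CPM in KO. In both genes the KO libraries lay above the other 4, and WT and OX overlapped. Neither difference between KO and WT passed the test, at log2 1.13 (SE 0.33, adjusted p = 0.134 by edgeR) for Os03g0168100 and log2 1.80 (SE 0.59, adjusted p = 0.195) for Os04g0589800. The OX against WT differences, log2 0.04 and 0.13, changed sign with DESeq2 size factors or TMM factors.

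The 2 LEA-18 genes, Os09g0482300 (chr9:18522513-18524680) and Os09g0482550 (chr9:18533972-18536139), had almost the same counts. Os09g0482300 had WT counts of 5 and 11, OX counts of 1 and 3, and KO counts of 2 and 4. Os09g0482550 had WT counts of 6 and 11, OX counts of 1 and 3, and KO counts of 2 and 5. The deposited counts are rounded up and never below 1, so a count of 1 can stand for less than a read. Both transcripts were 1723 bases long and began 11459 bases apart, and each overlapped by 1391 bases a gene for a peptidase A1 protein (Os09g0482200 and Os09g0482500) with 292 to 962 counts per library. The peptidase genes had lower counts in WT than in OX and KO, whereas the LEA-18 genes had higher counts in WT. The pair may share reads with each other and with these neighbours. Tested without the filter, neither was called, with adjusted p = 0.177 and 0.151 for OX against WT by edgeR and 0.547 and 0.608 for KO against WT. In the authors' deposited table the OX against WT adjusted p was 0.0534 for Os09g0482300 and 0.0389 for Os09g0482550, with signed folds of −5.08 and −5.38.

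One more transcript near the set was Os03g0353400 (chr3:13283223-13284511), similar to an early response to dehydration 15-like protein, whose wording also kept it outside the 11. In Arabidopsis, ERD15 dampens responses to abscisic acid. It was abundant, at 181 and 170 CPM in WT, 112 and 113 CPM in OX, and 234 and 240 CPM in KO, with OX lowest and KO highest. It was lower in OX than in WT (log2 −0.64, SE 0.05, adjusted p = 0.00107 by edgeR) and lower in OX than in KO (log2 −1.08, SE 0.05, adjusted p = 2.66e-04). The KO difference from WT was log2 0.44 (SE 0.05, adjusted p = 0.00519), but its sign turned with DESeq2 size factors (−0.06) and TMM factors (−0.12), and the call was lost without KO 2 (adjusted p = 0.0559).

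Annotation placed 6 of the 11 genes under the Gene Ontology term response to water deprivation, namely the 4 dehydrins, Os03g0843300 and Os05g0584200. The same 4 dehydrins were under response to abscisic acid and response to cold, the 2 LEA genes under response to desiccation, and Os04g0589800 under embryo development ending in seed dormancy. In the authors' deposited Gene Ontology enrichment, response to water deprivation held 39 selected entries at a term size of 112, with an adjusted p of 0.0451. Response to abscisic acid, with 53 at a term size of 205, had an adjusted p of 0.611 there. Response to cold and response to desiccation had adjusted p of 0.201 and 0.876. Embryo development ending in seed dormancy was not below 0.05 either.

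The transcripts most like the dehydrin Os02g0669100 over the 6 libraries were sought among 7025 other tested transcripts, by the root mean square difference between mean-centred log2(CPM + 1) profiles. The nearest was a transcript of Os02g0602100, similar to a CDC2L2-type protein kinase, at a difference of 0.034. It stood at 79.9 and 71.7 CPM in WT, 115 and 110 CPM in OX, and 188 and 185 CPM in KO. Next came the noncoding transcript of Os03g0118450 at 0.051 and Os03g0152000, a heavy metal transport or detoxification domain gene, at 0.052.

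Other genes of water-deficit responses were taken by description. Of 14 tested transcripts for abscisic acid metabolism and response, 9 were higher and 2 lower in OX than in WT, beside 44.1% called in either direction over all tested transcripts. In KO against WT 6 were higher and 1 lower, beside 36.0%, and in OX against KO 3 were higher and 5 lower, beside 38.3%. Os01g0963600, an ABA/WDS induced protein family gene, was lower in OX, at 829 and 849 CPM in WT, 316 and 327 CPM in OX, and 875 and 876 CPM in KO (log2 difference of OX from WT −1.39, SE 0.04, adjusted p = 6.57e-05 by edgeR). Os02g0766700, similar to the abscisic acid response element binding factor AREB2, stood at 24.0 and 22.3 CPM in WT, 51.5 and 51.1 CPM in OX, and 80.4 and 75.8 CPM in KO. This was the order WT, OX, KO of the dehydrin, with log2 differences from WT of 1.15 in OX (SE 0.07, adjusted p = 4.96e-04 by edgeR) and 1.76 in KO (SE 0.07, adjusted p = 1.58e-04). How many of all tested transcripts had this order was not counted, here or for the genes below that showed it. Os02g0703600, similar to abscisic acid 8'-hydroxylase 1, an enzyme that breaks the hormone down, stood at 19.3 and 23.4 CPM in WT, 52.2 and 56.0 CPM in OX, and 502 and 500.3 CPM in KO. Os07g0164900, similar to ABA aldehyde oxidase, which makes the hormone, stood at 17.1 and 15.7 CPM in WT, 62.6 and 59.2 CPM in OX, and 18.1 and 20.0 CPM in KO. The KO against WT split was 4 higher and 4 lower with DESeq2 size factors or TMM factors and 7 higher and 0 lower with plain library totals. Without OX 1 or OX 2, 7 transcripts were called in OX against WT, and without WT 1, KO 1 or KO 2, 4 were called in KO against WT.

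A further 11 transcripts were matched by the names of dehydration-responsive element or CBF transcription factors. They include Os01g0705700, similar to ICE1, and Os07g0608200, similar to a subunit of the CCAAT-binding factor (CBF-B). Neither of these descriptions names binding to a dehydration-responsive element. Of the 11, 7 were higher in OX and 9 in KO than in WT. None was called lower, against 1 and 1 at an unadjusted p below 0.05 and 1 and 1 by DESeq2. Over all tested transcripts, themselves selected for change, 25.0% were called higher in each of these comparisons, and 19.0% and 11.0% lower. In OX against KO 1 was higher and 6 were lower, beside 13.3% and 25.0%. Os02g0677300, similar to CRT/DRE binding factor 1, stood at 2.01 and 3.18 CPM in WT, 15.9 and 15.8 CPM in OX, and 95.1 and 95.3 CPM in KO (log2 difference of KO from WT 5.20, SE 0.23, adjusted p = 2.21e-04 by edgeR). Os02g0676800, similar to DREB1E, stood at 1.97 and 1.17 CPM in WT, 7.43 and 7.92 CPM in OX, and 22.8 and 24.1 CPM in KO. Both of these factors also showed the order WT, OX, KO, without overlap, as did Os09g0522000, similar to DREB1B. Over all tested transcripts, 46.7% lay higher in OX and 49.5% higher in KO than in WT without overlap, so this order may be common. Others of the 11 did not show it. Os07g0608200 was highest in OX (8.71 and 7.71 CPM in WT, 21.3 and 21.0 in OX, 11.4 and 8.92 in KO). Os09g0522200, DRE-binding protein 1A, was lowest in OX (28.1 and 29.1 CPM in WT, 26.7 and 23.6 in OX, 52.7 and 54.2 in KO). In OX against WT 4 were called without WT 1, OX 1 or OX 2, in KO against WT 5 without KO 1 and 5 with TMM factors, and in OX against KO 4 without OX 1, OX 2 or KO 2.

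Another list held 9 transcripts for enzymes of compatible solutes, namely raffinose, galactinol, trehalose and, through Os01g0848200, proline. Of these 9, 1 was higher and 3 lower in OX than in WT. In KO against WT 4 were higher and none lower, with 0 lower also at an unadjusted p below 0.05 and by DESeq2. In OX against KO 1 was higher and 5 were lower. The shares called in either direction were 44.4%, 44.4% and 66.7%, beside 44.1%, 36.0% and 38.3% over all tested transcripts, so the first was at the background. Os02g0790500, similar to trehalose-6-phosphate synthase, stood at 94.5 and 98.3 CPM in WT, 72.5 and 77.8 CPM in OX, and 205 and 198 CPM in KO; its OX call against WT was lost with plain library totals and without WT 2, OX 1 or KO 2. Os02g0661100, similar to trehalose-6-phosphate phosphatase, stood at 2.40 and 1.76 CPM in WT, 3.62 and 3.10 CPM in OX, and 33.1 and 34.3 CPM in KO. Os01g0170000, a raffinose synthase family gene, stood at 17.1 and 20.0 CPM in WT, 23.3 and 25.8 CPM in OX, and 59.0 and 56.4 CPM in KO. The OX against WT split was 3 higher and 0 lower with plain library totals. It came to 1 call without WT 2, OX 1 or KO 2 and 2 calls without OX 2 or KO 1.

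Of 9 small heat shock protein transcripts, whose products hold unfolding proteins in solution, 3 were higher and 4 lower in OX than in WT, and 2 were higher and none lower in KO than in WT, with 0 lower also at an unadjusted p below 0.05 and by DESeq2. In OX against KO 4 were lower and none higher, against 2 higher at an unadjusted p below 0.05 and 1 by DESeq2. The shares called in either direction were 77.8%, 22.2% and 44.4%, beside the same 44.1%, 36.0% and 38.3%. The split was 3 higher and 1 lower in OX against WT with plain library totals, 2 higher and 1 lower in KO against WT with TMM factors, and 2 higher and 3 lower in OX against KO with DESeq2 size factors or TMM factors. Leaving out a library gave 2 (OX 1 or OX 2), 3 (WT 2) or 4 (WT 1, KO 1 or KO 2) calls in OX against WT, 1 call in KO against WT without KO 1, and 2 calls in OX against KO without OX 1.

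**Figure D4:**
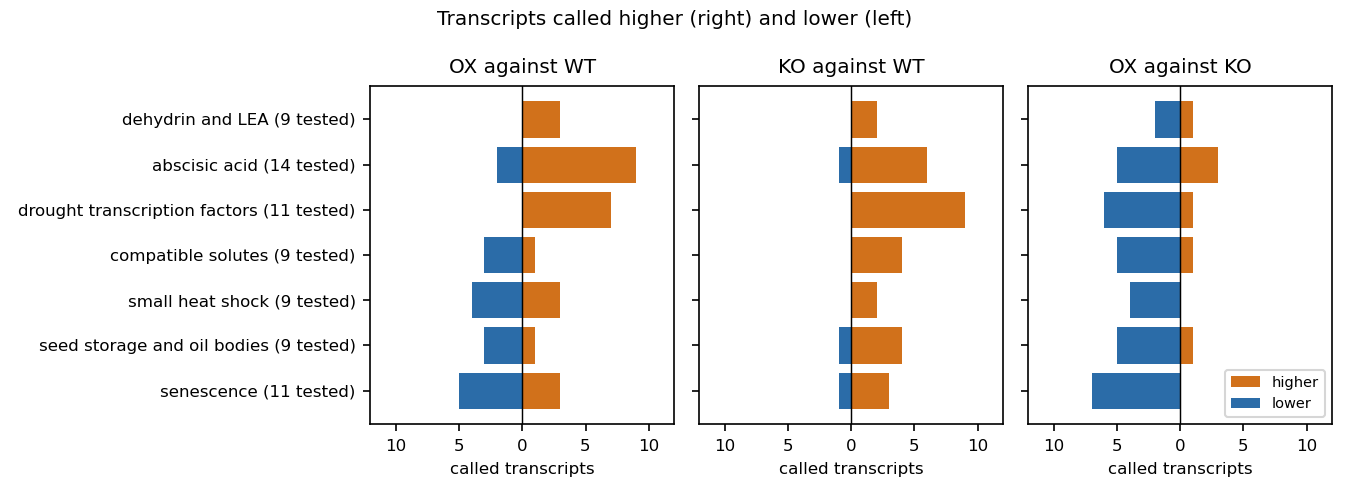
Number of transcripts called lower (bars to the left) and higher (bars to the right) by edgeR at an adjusted p below 0.05 in each comparison, for the dehydrin and LEA genes and 6 other groups taken by description. The drought transcription factors have 7 and 9 calls higher and none lower against WT, and the dehydrin and LEA genes have 3 and 2 higher and none lower.

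LEA genes are also seed genes and some change with leaf age, so lists for both, matched by description, were read beside them. In the seed list, Os07g0290200, Os11g0484700, Os05g0160300 and Os03g0251000 matched only by a domain name shared with lipid transfer proteins. These are not specific seed markers. The 9 transcripts of the seed list summed to 75.7 and 76.6 CPM in WT, 129 and 127 CPM in OX, and 103 and 112 CPM in KO. Of these, 1 was higher and 3 lower in OX than in WT, 4 were higher and 1 lower in KO than in WT, and 1 was higher and 5 lower in OX than in KO. These are 44.4%, 55.6% and 66.7% called, beside 44.1%, 36.0% and 38.3% over all tested transcripts. Os03g0251000, a lipid transfer and seed storage domain gene, was lowest in OX, at 7.44 and 7.21 CPM in WT, 0.378 and 0.351 CPM in OX, and 13.3 and 13.1 CPM in KO (log2 difference of OX from WT −4.31, SE 0.18, adjusted p = 1.60e-04 by edgeR). The largest part of the OX sum was Os04g0537900, a vacuolar processing enzyme, at 111 and 106 CPM. The glutelin family gene Os03g0188500, for a storage protein, stood at 1.43 and 2.30 CPM in WT, 2.08 and 3.74 CPM in OX, and 13.3 and 18.7 CPM in KO. No listed description named an oleosin or a prolamin. The KO against WT split was 1 higher and 2 lower with DESeq2 size factors or TMM factors and 4 higher and 0 lower with plain library totals. Leaving out a library gave 0 (KO 2), 1 (WT 2), 2 (WT 1 or KO 1) or 3 (OX 1 or OX 2) calls in KO against WT, 2 calls in OX against WT without WT 2, OX 1 or OX 2, and 2 (OX 1 or KO 2) or 3 (KO 1) calls in OX against KO. The part of these genes in the LEA result was not tested.

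The 11 senescence and stay-green transcripts summed to 392 and 549 CPM in WT, 322 and 494 CPM in OX, and 709 and 1188 CPM in KO. Of these, 3 were higher and 5 lower in OX than in WT, 3 were higher and 1 lower in KO than in WT, and 7 were lower and none higher in OX than in KO, against 1 higher at an unadjusted p below 0.05 and 0 by DESeq2. These are 72.7%, 36.4% and 63.6% called, beside 44.1%, 36.0% and 38.3%. Os04g0249600, similar to the senescence-associated protein DIN1, stood at 9.64 and 9.38 CPM in WT, 34.6 and 35.1 CPM in OX, and 115 and 116 CPM in KO. Os06g0717100, a senescence-associated family gene, stood at 19.6 and 20.7 CPM in WT, 58.8 and 61.4 CPM in OX, and 109 and 105 CPM in KO. Both showed the order WT, OX, KO of the dehydrin, but the list as a whole did not. The median log2 difference of the 11 from WT was −1.15 in OX and 0.57 in KO. The part of these genes in the LEA result was not tested. With plain library totals the split was 3 higher and 3 lower in OX against WT and 1 higher and 7 lower in OX against KO, and it was 1 higher and 6 lower there with DESeq2 size factors or TMM factors. Without OX 1 or OX 2, 5 were called in OX against WT, and without OX 1, 4 in OX against KO.

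Among 5 transcripts described by root or root hair names, 2 were higher in KO than in WT, beside 25.0% of all tested transcripts. None was called in OX against WT (3 higher at an unadjusted p below 0.05 and 2 by DESeq2) or in OX against KO (0 by each). These 2 calls rested on levels of at most 7.75 CPM, and they fell to 0 with DESeq2 size factors or TMM factors and to 0 or 1 without any 1 library. In OX against WT 3 were called higher with plain library totals and 1 was called without WT 2. Of 92 transcripts matched by names of histones, cyclins or kinesins, 48 are F-box proteins with a cyclin-like label. Of the 92, 12 were higher and 16 lower in OX than in WT, and 21 higher and 13 lower in KO than in WT. In OX against KO 10 were higher and 19 lower. These are 30.4%, 37.0% and 31.5% called, beside 44.1%, 36.0% and 38.3% over all tested transcripts. These splits turned with scaling, to 18 higher and 11 lower in OX against WT with plain library totals and 10 higher and 22 lower with DESeq2 size factors or TMM factors. In KO against WT the split was 11 higher and 16 lower with DESeq2 size factors and 8 higher and 17 lower with TMM factors. In OX against KO it was 16 higher and 11 lower, 16 higher and 10 lower, and 13 higher and 15 lower with DESeq2 size factors, TMM factors and plain library totals. Without OX 1 or OX 2, 14 and 17 were called in OX against WT, without KO 1 or KO 2, 19 and 21 in KO against WT, and without OX 1, OX 2, KO 1 or KO 2, 15, 16, 17 and 15 in OX against KO. In OX against KO, 2 of the 40 leaf photosynthesis transcripts were higher and 31 lower, beside 13.3% and 25.0% of all tested transcripts. With TMM factors 18 of the 40 were called.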

How the data were processed

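Poly(A) RNA was sequenced from leaves with a TruSeq stranded kit, per the labels' protocols; per the submitters' processing notes the genome build was IRGSP-1.0, while the sources used here do not give the aligner, counter, strand setting or the authors' test. The deposited estimated counts are whole numbers of at least 1, and 100.0% match reads worked out from the authors' FPKM, scaled to length and depth, and raised to the next whole number (tolerance 0.02 below and 1.02 above, each plus 1e-04 of the count). The authors' deposited log2 values are log2(CPM + 1) on an effective library total, and those totals served as library sizes. Raw and adjusted p-values and a linear, signed fold score were deposited by the authors. The authors selected the listed transcripts (at least 2-fold, p below 0.05).

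Counts were tested with edgeR 4.0.16 (R 4.3.3; 1 quasi-likelihood fit with robust dispersion, group as the only term), tested first on simulated data. filterByExpr kept 7034 transcripts and removed 160, and the biological coefficient of variation was 0.291. The SE is the log2 fold change divided by the square root of F. Precision is limited by 2 libraries a group. Alternatives were DESeq2 1.42.0 (Wald test), 3 other scalings, no filter, the replicate number as a block, and each library left out. The genes named were the dehydrins and every called member with all values, transcripts drawn from the 3 with the smallest p in each list and comparison (not all of these are printed), and the 3 profiles most like Os02g0669100; RAB21-like, LEA-like and ERD15-like transcripts were added after their values were seen. The members and the 9 lists were chosen with earlier results of these data known.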

Additional observations from a re-analysis of the deposited data

How the results depend on the processing

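Another scaling shifted the median of all log2 differences, by −0.17, −0.49 and 0.32 (OX against WT, KO against WT, OX against KO) with DESeq2 size factors, by −0.18, −0.56 and 0.37 with TMM on the listed transcripts, and by 0.37, 0.19 and 0.17 with plain library totals; the first 2 were computed on transcripts selected for change. The number of dehydrin and LEA genes called higher in KO against WT, 2 in the reported fit, was 1 with DESeq2 size factors, 1 with TMM, 4 by the DESeq2 Wald test and 1 with the replicate block, and the number called lower, 0 in the reported fit, was 1 with DESeq2 size factors and 1 with TMM. The number called lower in OX against KO, 2 in the reported fit, was 1 with DESeq2 size factors, 0 with TMM, 1 with plain library totals and 1 with the replicate block, and the number called higher was 0 with the block. Leaving out 1 library gave 1 to 3 genes higher in OX against WT, 1 to 3 higher in KO against WT, and 0 to 0 higher and 1 to 1 lower in OX against KO. Same-numbered libraries did not deviate together (correlations 0.0771, 0.0232 and 0.0159), so the number is not treated as a pairing. With it as a replicate block, calls fell to 4 for abscisic acid in KO against WT, 2 for compatible solutes in OX against WT, 2 for seed storage and 0 for root in KO against WT; the calls lost among the 11 genes were Os03g0843300 in KO against WT (adjusted p = 0.0667), Os05g0542500 in OX against WT (0.0521), and RAB 16C and RAB 16B in OX against KO (0.0775 and 0.0808). By scaling, calls were 3 for seed storage in KO against WT with DESeq2 size factors and 3 with TMM, 0 and 0 for root there, 5 for drought transcription factors there with TMM, 18 for photosynthesis in OX against KO with TMM, 4 for small heat shock in OX against WT with plain totals, and 3 for root there with plain totals and 2 by the DESeq2 Wald test. Leaving out 1 library gave, in OX against WT, 7 to 10 calls for abscisic acid, 1 to 4 for compatible solutes, 4 to 6 for drought transcription factors, 2 to 4 for small heat shock, 2 to 4 for seed storage, 14 to 23 for dividing cells, 5 to 8 for senescence and 0 to 1 for root. In KO against WT it gave 4 to 5 for abscisic acid, 5 to 9 for drought transcription factors, 1 to 2 for small heat shock, 0 to 3 for seed storage, 19 to 29 for dividing cells and 0 to 1 for root. In OX against KO it gave 4 to 7 for drought transcription factors, 2 to 6 for small heat shock, 2 to 4 for seed storage, 15 to 27 for dividing cells and 4 to 7 for senescence. The sign of the log2 difference of OX from WT turned for Os03g0168100 (−0.13 with DESeq2 size factors, −0.14 with TMM, −0.13 to 0.24 with a library left out), Os04g0589800 (−0.042 with DESeq2 size factors, −0.061 with TMM, −0.45 to 1.19 with a library left out), Os11g0451700 (−0.025 with DESeq2 size factors, −0.044 with TMM, −0.25 to 0.73 with a library left out), the RAB21-like Os11g0454300 (0.0040 with plain totals) and the trehalose-6-phosphate synthase transcript of Os02g0790500 (0.0092 with plain totals). For KO against WT it turned for Os03g0353400 (−0.058 with DESeq2 size factors, −0.12 with TMM). The cause of these changes was not tested. Dropping the filter on low counts changed no call among the 9 tested genes. With 2 libraries a group and 1 to 81 counts per library for 7 of the genes, depth limits what the test could call for them.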
